A study of Mus musculus with 2 samples.

Results

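Conventional dendritic cells were examined in single-cell RNA data of whole mouse lung, as the 79 droplets out of 15695 that met a rule on marker counts. The lungs came from female BALB/c mice, 9 to 10 weeks of age, that had been injected into a vein for 3 weeks with control media (CM) or with tumor conditioned media (TCM). For TCM, 4T1 mammary tumors had been kept in the medium, so the injected mice carried no tumor of their own by design. Each group had 1 library, the number of mice in it was not stated, and no test between groups could be run. The intervals below are 95% intervals for counting error only and say nothing of the spread between mice. Those of ratios of summed UMIs, and the calls made from them, also leave out the spread between droplets of a library.

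Conventional dendritic cells take up material in the lung, carry it to lymph nodes and present it to T cells on major histocompatibility complex (MHC) molecules. The kind called cDC1 depends on the transcription factors Irf8 and Batf3, bears the chemokine receptor Xcr1 and the dead-cell receptor Clec9a, and is known for presenting material from other cells on MHC class I. The kind called cDC2 often bears lectins such as Cd209a, Mgl2 and Clec10a and presents chiefly on MHC class II. Plasmacytoid dendritic cells are a separate kind, marked by Siglech, Tcf4 and Bst2 and known as makers of type I interferon.

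Droplets were first kept if they had at least 500 UMIs (unique molecular identifiers, each standing for 1 captured RNA molecule), at least 200 genes and at most 10% mitochondrial UMIs. A member then had at least 2 summed UMIs of Flt3, Clec9a, Xcr1, Cd209a and Zbtb46, which code for a growth factor receptor, the receptors named above and a transcription factor of this lineage, and at least 3 of H2-Ab1, an MHC class II chain. It had at most 1 summed UMI of the macrophage complement genes C1qa, C1qb and C1qc, and 0 of Cdh5, Cd79a, Cd3e, Epcam and Col1a2, which mark endothelial, B, T, epithelial and mesenchymal cells. The members were thus chosen by the counts of these genes, which are no result. The rule gave 53 members among 7988 CM droplets and 26 among 7707 TCM droplets. Members with at least 1 UMI of Xcr1 or Clec9a were counted as cDC1, which gave 30 in CM and 18 in TCM and left 23 and 8.

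With all other conditions met, 17 CM and 7 TCM droplets stayed outside with 1 marker UMI, and 10 CM and 2 TCM members were inside with 2. For H2-Ab1, 1 CM and 2 TCM droplets stayed outside with 1 or 2 UMIs, and 3 CM and 1 TCM members were inside with 3 to 5. For the C1q genes, 0 CM droplets and 1 TCM droplet stayed outside with 2 or 3 UMIs, and 0 CM members and 1 TCM member were inside with 1. A single UMI of another lineage kept 16 CM and 20 TCM droplets outside. Cd209a was the only marker in 13 CM and 4 TCM members.

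In all, 31944151 UMIs were counted for CM and 36648719 for TCM. The members' median depth was 5590 UMIs in CM (816 to 11711) and 7187 in TCM (1039 to 12189), and they summed to 312068 and 171310 UMIs. The libraries shared 93 barcodes among their filtered droplets and 0 among their members.

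The members were not of 1 kind. In 15 CM members and 1 TCM member the summed UMIs of Siglech, Ccr9 and Cox6a2, genes of plasmacytoid dendritic cells, were at least 3, and these droplets went against the label. The limit was chosen after the values had been seen. The other members had at most 2 such UMIs in CM and 1 in TCM, while the marked droplets had at least 5 in CM and 29 in TCM. Siglech ranged from 3 to 23 UMIs in the 15 CM droplets, with a median of 16, and was 17 in the TCM droplet. They are called Siglech-marked here, and 4 of them in CM and 1 in TCM were counted as cDC1 by the rule.

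A second set of CM droplets looked like repeats of each other. For each pair of members of a library, a chi-square for a shared profile was divided by its degrees of freedom, over genes with at least 5 UMIs in the pair, so that sampling of 1 profile gives a value near 1. The median over 1703 pairs was 4.16. A set of 5 CM members gave 0.842 to 1.19 over its 10 pairs, and a set of 4 gave 0.979 to 1.21 over its 6 pairs. The set of 5 had 298 to 400 UMIs each of Scgb1a1, the main secreted protein of club cells. The set of 4, all counted as cDC1, had 120 to 173 UMIs each of Sftpc, a surfactant protein of alveolar type II cells.

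Outside the members, 353 CM droplets had an H2-Ab1 UMI and at least 100 summed UMIs of Scgb1a1 and Sftpc, and of these 5 more matched the first set and 4 more the second, at a limit of 1.3 that was set after the values had been seen. The lowest value of a TCM pair was 1.32. The 9 CM droplets differed by no more than sampling noise and may stand for as few as 2 sources, and their origin was not tested. With 1 TCM member at 132 summed UMIs of both genes they are called secretory-gene-laden, a limit of 100 that was also set after the values had been seen. No other member had more than 43.

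**Figure D1:**
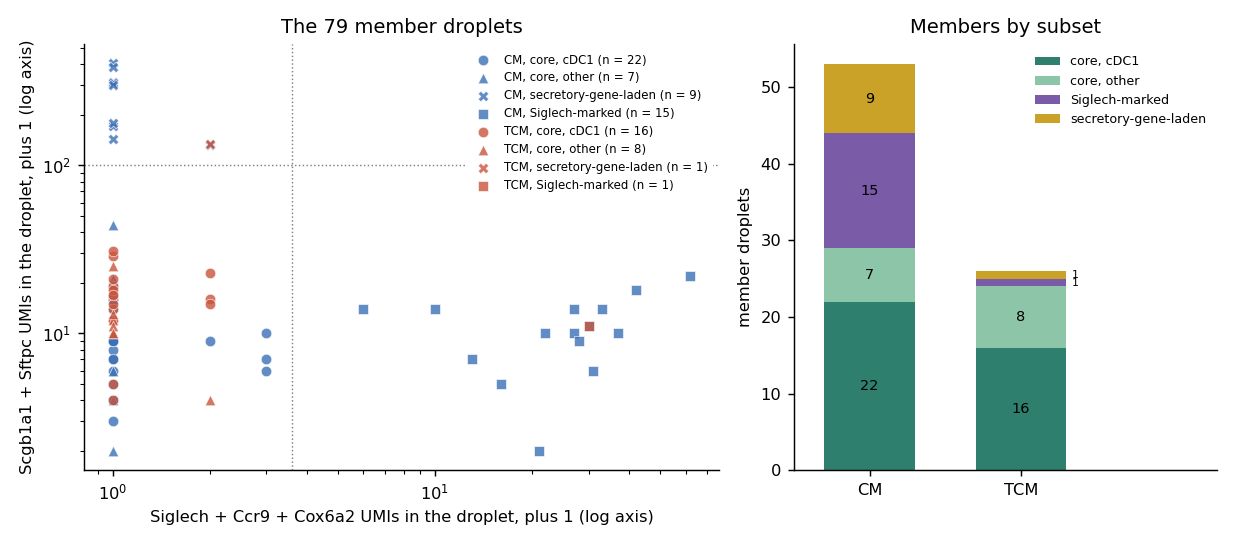
Each of the 79 members by its summed UMIs of Siglech, Ccr9 and Cox6a2 and of Scgb1a1 and Sftpc, on log axes (left), and the number of members of each kind in the CM and TCM libraries (right). The Siglech-marked droplets (15 CM, 1 TCM) and the secretory-gene-laden droplets (9 CM, 1 TCM) lie apart from the remaining 29 CM and 24 TCM members.

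**Figure D2:**
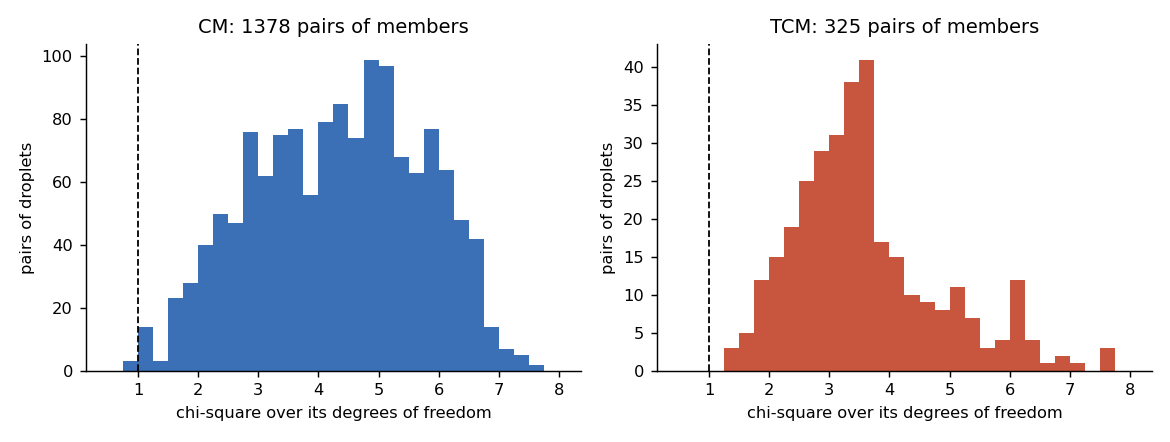
Number of pairs of members (y axis) by chi-square over degrees of freedom (x axis) in the CM library (1378 pairs) and in the TCM library (325 pairs). In CM, 17 pairs lie at or below 1.3, with the next at 1.45, and in TCM the lowest pair lies at 1.32.

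The 29 CM and 24 TCM members without these 2 kinds are called core members, with 217287 and 163104 UMIs and median depths of 7946 and 7338. Among them 1 more CM pair, of 6004 and 8951 UMIs, had a value of 1.17. A TCM core member also stood apart: it had 3 H2-Ab1 UMIs among 11779, 13 of Cd209a, 32 of Cst3 and 263 of Lyz2, a lysozyme of monocytes, macrophages and granulocytes. Results below are for core members, with those for all members where they differ.

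Of the markers that the rule did not use, Cst3, a protease inhibitor abundant in conventional dendritic cells, was higher in the core members summed together than in the Siglech-marked droplets. It stood at 3713 UMIs per 100000 UMIs in CM core members, 3717 in TCM core members and 266 in the CM Siglech-marked droplets. By droplet Cst3 ranged from 456 to 9133 in the CM core, from 272 to 8506 in the TCM core and from 0 to 770 in the CM Siglech-marked droplets, so the lowest core members lay inside the range of the latter. The median of the CM core members outside the Irf8-bearing cDC1, a set defined below, was 1384. A gene was called where the ratio was at least 2-fold and its interval excluded equality, among genes with at least 20 summed UMIs and a UMI in at least 10 members. Of the 5 markers shared by both kinds of conventional dendritic cell 4 could be tested in the core and 0 were called, Cst3 standing at 0.00 (-0.05 to 0.05), Btla at 0.25 (-0.78 to 1.28), Dpp4 at 0.24 (-0.82 to 1.299) and Itgax at -1.17 (-2.79 to 0.22), as log2 ratios of TCM to CM. Bst2, an antiviral membrane tether, stood at 16.6, 7.36 and 631 in the same order. Klk1, a kallikrein protease, had 282 UMIs in the CM Siglech-marked droplets and 0 in the core of both libraries, although reads of kallikrein genes can be shared with their near-identical copies. The summed T and NK cell markers were at 0.460 and 1.23 per 100000 in the core, and the alveolar macrophage markers at 4.60 and 6.13. The monocyte markers were at 28.5 and 58.2 per 100000, and at 28.5 and 25.8 without the TCM member of high Lyz2. The club cell markers were at 96.2 and 147 and those of alveolar type II cells at 43.3 and 90.7. Free RNA, taken up by droplets from the medium, was estimated at 1.66% of UMIs in CM core members and 3.75% in TCM core members.

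The share of members was lower in TCM when all were counted, Siglech-marked and secretory-gene-laden droplets among them, and the core shares overlapped. All members were 0.663% of CM droplets (0.497 to 0.867) and 0.337% of TCM droplets (0.220 to 0.494), a ratio of 0.508 (0.305 to 0.828). Core members were 0.363% (0.243 to 0.521) and 0.311% (0.200 to 0.463), a ratio of 0.858 (0.478 to 1.53), so a difference was not detectable at these numbers. Siglech-marked members were 0.188% of CM droplets (0.105 to 0.310) and 0.0130% of TCM droplets (0.000329 to 0.0723). In the whole libraries, 27 CM and 16 TCM droplets had at least 3 Siglech UMIs, of which 12 and 15 were no members. Droplets of a neutrophil rule were 2.49% in CM and 16.3% in TCM, and without them the ratio for all members was 0.592 (0.356 to 0.964).

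The split into cDC1 and the rest moved with the membership. Of all members, 56.6% were cDC1 in CM (42.3 to 70.2) and 69.2% in TCM (48.2 to 85.7). Of the core members, 75.9% were cDC1 in CM (22 of 29, 56.5 to 89.7) and 66.7% in TCM (16 of 24, 44.7 to 84.4). The intervals overlap in both cases. The split is thin: 7 CM and 2 TCM core cDC1 rested on 1 UMI of Xcr1 or Clec9a, and 14 CM and 6 TCM members had Cd209a besides one of these genes.

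Irf8 divided the core cDC1 further. At least 2 UMIs of it were found in 16 of the 22 core cDC1 in CM and 12 of the 16 in TCM, a limit chosen after seeing the values, and these are called Irf8-bearing cDC1. Their Irf8 level ranged from 39.0 to 312 UMIs per 100000 in CM, with a median of 180, and from 28.97 to 289 in TCM, with a median of 178. In the remaining core members, 13 in CM and 12 in TCM, the median of Irf8 was 0. Irf8 was not particular to cDC1. It had 0 to 29 UMIs in the CM Siglech-marked droplets and 2 to 31 in the CM Irf8-bearing cDC1. Naaa, a lipid amidase high in cDC1, had medians of 94.5 and 147 per 100000 in the Irf8-bearing cDC1 and of 12.6 and 36.9 in the remaining members. Mgl2, a lectin of cDC2, showed the reverse in its sums, with 8 and 0 UMIs in the Irf8-bearing cDC1 and 52 and 41 in the remaining members. Of these 52 CM UMIs, 35 lay in 1 member. A TCM member with 21 Irf8 UMIs had neither Xcr1 nor Clec9a and so was not counted as cDC1.

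**Figure D3:**
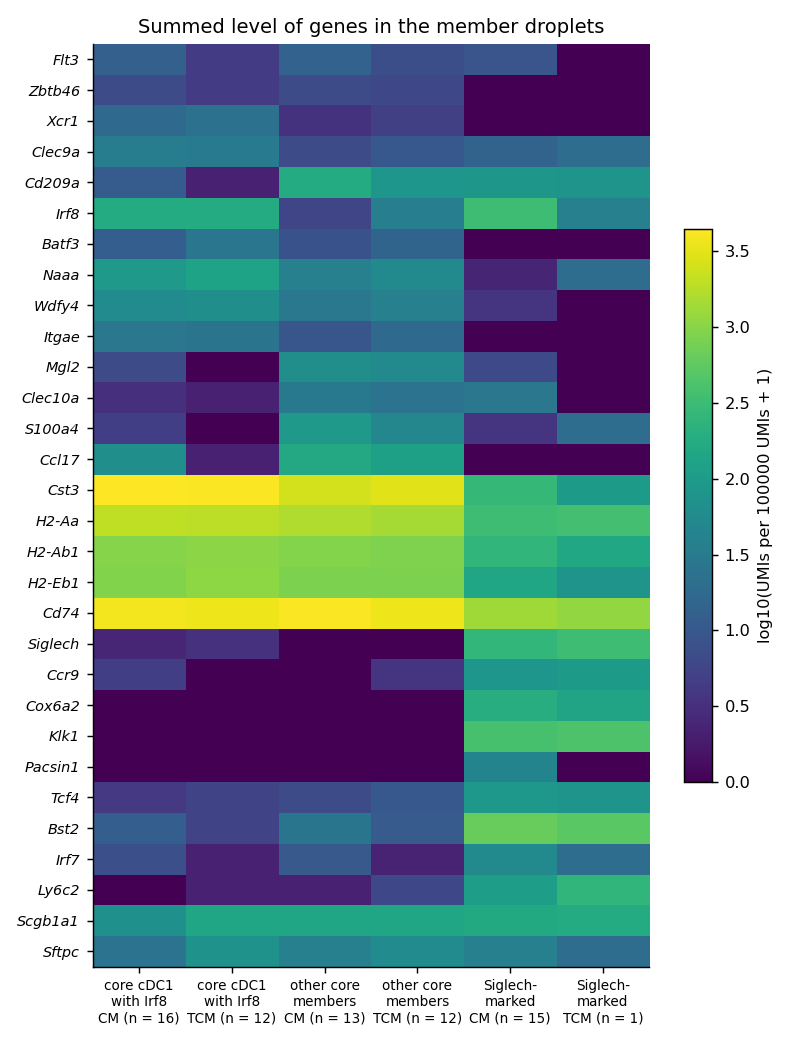
Summed levels of 30 genes, as log10 of UMIs per 100000 UMIs plus 1 (color), in Irf8-bearing core cDC1, the remaining core members and the Siglech-marked members of the CM and TCM libraries. Irf8, which chose the Irf8-bearing columns, and Naaa are high there in both libraries, and Irf8 is also high in the CM Siglech-marked column. Siglech, which helped choose the Siglech-marked columns, is high there, as are Klk1 and Bst2, while Cst3 and H2-Aa are low. The TCM Siglech-marked column is a single droplet.

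Presentation on MHC class II is the work these cells share, and 2 of its genes that the rule did not use are shown by the 250 bases before their start sites, since their summed levels were higher in the core members than in the Siglech-marked droplets, although the ranges of single droplets overlap. The sequences are from RefSeq on build GRCm38.p6, which is the reference strain and not BALB/c. That of H2-Aa, a class II alpha chain, is chr17:34287824-34288073 on the minus strand, and that of H2-Eb1, a class II beta chain, is chr17:34305617-34305866 on the plus strand. The capitals mark CTGATTGG, letters of the Y box known from class II promoters.
H2-Aa: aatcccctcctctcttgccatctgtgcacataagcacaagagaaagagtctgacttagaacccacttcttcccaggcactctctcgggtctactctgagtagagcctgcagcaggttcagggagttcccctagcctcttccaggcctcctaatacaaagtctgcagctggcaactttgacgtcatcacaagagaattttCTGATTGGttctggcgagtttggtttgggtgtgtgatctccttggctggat
H2-Eb1: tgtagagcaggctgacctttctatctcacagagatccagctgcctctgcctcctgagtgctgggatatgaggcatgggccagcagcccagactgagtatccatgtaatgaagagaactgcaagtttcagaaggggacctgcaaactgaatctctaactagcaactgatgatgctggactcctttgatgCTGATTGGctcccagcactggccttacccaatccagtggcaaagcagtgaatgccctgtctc
The letters begin 51 bases before the start of H2-Aa and 62 before that of H2-Eb1. Searched on both strands, they were in 3.83% of 32851 promoters and in 4 of the 14 class II pathway genes with a searched promoter, the others being H2-Eb2 and H2-Oa. Promoters of 1 chromosome were not searched and are in neither count. A match is a description of the letters and shows no binding. H2-Ab1 was without an entry.

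Class II transcripts were at near-equal levels in the core members of both libraries. H2-Aa ranged from 751 to 2780 UMIs per 100000 in the CM core members, with a median of 1801, and from 17.0 to 2864 in the TCM core members, with a median of 1874, so the libraries overlapped. Summed over members, the TCM to CM ratio on the log2 scale was -0.11 (-0.18 to -0.04) for H2-Aa and 0.12 (0.02 to 0.21) for H2-Eb1. It was -0.12 (-0.17 to -0.08) for Cd74, the chain that guards the class II groove. These sums include the TCM member of high Lyz2, which had 6 Cd74 UMIs among 11779 and the H2-Aa level of 17.0. That member pulls the TCM sums down, and the ratios of these genes without it are not given here. Ifi30, a reductase of the compartment where antigen is cut, stood at -0.56 (-0.85 to -0.28). In the CM Siglech-marked droplets H2-Aa was at 325 per 100000 and H2-Eb1 at 143, against 1828 and 894 in the CM core.

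Of 17 class II pathway genes in the files, 11 could be tested in the core and 0 were called. Over all genes tested there, 1.77% were called higher and 2.33% lower, so 0 calls do not set this list apart. Its median log2 ratio was -0.11 against -0.03 over all genes tested. Over all members the median was 0.17, and Ciita, which turns on class II genes, was called higher with 18 UMIs in CM and 20 in TCM.

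Over all members, 56 of 3059 genes tested were called higher in TCM, or 1.83%, and 175 were called lower, or 5.72%. In the core members 41 of 2315 were called higher, or 1.77%, and 54 were called lower, or 2.33%. Without the TCM member of high Lyz2 the core counts were 26 and 66, of which 25 and 44 were shared with the core calls. The 2 comparisons shared 20 genes called higher and 30 called lower. Most of the lower calls with the strongest bounds over all members were genes of the Siglech-marked droplets, which held 100% of the CM UMIs of Klk1, Klk1b27, Pacsin1 and Ctsl. They also held 99.3% of those of Cox6a2, 95.1% of Ly6c1, 92.5% of Bst2, 92.0% of Atp1b1, 70.7% of Irf7 and 66.9% of Cd7. All 5 plasmacytoid genes that could be tested over all members were called lower, and 0 of them had enough UMIs in the core. Siglech, Ccr9 and Cox6a2 among them had chosen the Siglech-marked droplets, so their share there and their loss from the core are no result. The others, Klk1 and Pacsin1, had no part in that choice.

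Interferon-stimulated genes moved with the same droplets. Over all members 10 of 26 could be tested, 4 were called lower (Irf7, Bst2, Stat2 and Ifi44) and 0 higher, and their median log2 ratio was -0.77 against -0.07 over all genes. In the core 6 could be tested and the median was -0.08. There Bst2 was called lower, with 36 and 12 UMIs (-1.17, -2.25 to -0.20). Ifitm3, which hinders virus entry, stood at -0.10 (-0.35 to 0.15) and Ifi27l2a at -0.48 (-0.90 to -0.07). Irf7, a transcription factor of the interferon response, had 17 and 2 UMIs in the core, too few to be tested.

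Among the cDC1 genes, 8 of 11 could be tested in the core, 1 was called and the median log2 ratio was 0.13. The gene called was Batf3, on chromosome 1 at 191097847 to 191108945, whose product keeps Irf8 active in cDC1. Batf3 ranged from 0 to 50.3 UMIs per 100000 in the CM core members, with a median of 8.54, and from 0 to 76.6 in the TCM core members, with a median of 14.0. The ranges overlap, and 15 members of each library had a UMI. The sums were 21 and 33 UMIs, a log2 ratio of 1.07 (0.23 to 1.93), and in the Irf8-bearing cDC1 the ratio was 1.198 (0.19 to 2.25). Free RNA was at 0.574 and 0.464 per 100000 for this gene. Irf8 itself stood at -0.04 (-0.33 to 0.25) in the core. Naaa stood at 0.37 (0.04 to 0.70), Wdfy4, needed to present cell-borne antigen, at 0.19 (-0.25 to 0.63) and Ifi205 at -0.39 (-0.995 to 0.20).

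Of the cDC2 genes 4 of 8 could be tested in the core, with a median of 0.10. The transcription factor Klf4 was called higher with 14 and 22 UMIs (1.07, 0.03 to 2.15), and without the TCM member of high Lyz2 it stood at 0.52 (-0.66 to 1.70). Mgl2 stood at -0.14 (-0.75 to 0.46), Clec10a at -0.09 (-1.02 to 0.81) and the integrin gene Itgam at 0.29 (-1.03 to 1.60). Batf3 and Klf4 were also the calls among 13 transcription factors of dendritic cells tested in the core, whose median was 0.03. Id2, which works against plasmacytoid fate, stood at -0.18 (-0.62 to 0.24), Spi1 at -0.27 (-0.75 to 0.19) and Cbfa2t3 at 0.21 (-0.40 to 0.81). Tcf4, which sets plasmacytoid fate, was called lower over all members with 75 and 15 UMIs, of which 65 CM UMIs lay in the Siglech-marked droplets.

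MHC class I and cross-presentation genes gave 0 calls among 14 tested in the core, with a median of -0.10. The class I heavy chains H2-D1 and H2-K1 stood at -0.01 (-0.26 to 0.24) and -0.17 (-0.50 to 0.15). The proteasome activator Psme1 stood at -0.10 (-0.45 to 0.25) and B2m, the class I light chain, at -0.03 (-0.40 to 0.33).

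Costimulation gave 1 call among 9 genes tested in the core. Cd40, the receptor by which helper T cells activate dendritic cells, lies on chromosome 2 at 165055627 to 165072948. It ranged from 0 to 110 UMIs per 100000 in CM core members and from 0 to 11.6 in TCM core members, with a median of 0 in both. Cd40 had 26 UMIs in 10 CM members and 2 UMIs in 2 TCM members, a log2 ratio of -3.29 (-6.41 to -1.29). Of the CM UMIs 21 lay outside the Irf8-bearing cDC1. The share of core members with a Cd40 UMI was 34.5% in CM and 8.33% in TCM at median depths of 7946 and 7338 UMIs, against 0.424% and 0% of T-cell droplets at 2389 and 2433. After thinning to 1000 UMIs per droplet the shares of core members were 17.2% (5.85 to 35.8) and 0% (up to 14.2), which overlap, and those of T-cell droplets 0.177% and 0%.

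The median of the costimulation list was -0.16. Cd83, a surface protein of activated dendritic cells, stood at -0.16 (-0.49 to 0.18), and Tnfsf9, the ligand of 4-1BB, at -0.39 (-0.99 to 0.19). Cd86, a ligand of CD28, stood at -0.83 (-1.78 to 0.04) and the checkpoint receptor gene Havcr2 at -0.07 (-1.13 to 0.95).

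Il1b and Tnf were lower in TCM in the Irf8-bearing cDC1. The summed cytokine list had 420 UMIs there in CM and 85 in TCM, and without Il1b and Tnf it had 64 and 50 UMIs, a log2 ratio of 0.29 (-0.27 to 0.85). Il1b, which codes for interleukin-1 beta, ranged there from 0 to 895 UMIs per 100000 in CM, with a median of 40.6, and from 0 to 256 in TCM, with a median of 11.1. Of the 16 CM members 6 lay above the highest TCM member, and the rest overlapped. Both droplets of the CM pair with a chi-square value of 1.17 were among these 6, which may thus stand for fewer sources. The Il1b sums were 273 and 27 UMIs, a log2 ratio of -2.69 (-3.32 to -2.12), which was -2.83 without the highest member of each library and -2.52 without the shallower of the matching CM pair. In the remaining core members Il1b had 229 and 198 UMIs (-0.10, -0.39 to 0.18). Il1b was higher in TCM in T-cell droplets, at 7.90 and 51.5 per 100000, and in free RNA, at 36.4 and 105.

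Tnf, which codes for tumor necrosis factor, ranged in the Irf8-bearing cDC1 from 0 to 246 UMIs per 100000 in CM, with a median of 17.6, and from 0 to 60.5 in TCM, with a median of 0. The Tnf sums were 83 and 8 UMIs (-2.73, -3.99 to -1.68). In the remaining core members they were 5 and 21 UMIs (2.18, 0.73 to 3.94). Over the whole core, 1 of 5 cytokine genes tested was called, Tnf at -1.19 (-1.85 to -0.57), and the list's median was -0.42. Il1b stood at -0.74 (-0.98 to -0.51), Tgfb1 at -0.08 (-0.66 to 0.48) and Ebi3 at -0.08 (-1.07 to 0.87). The difference between the kinds of member was not tested.

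**Figure D4:**
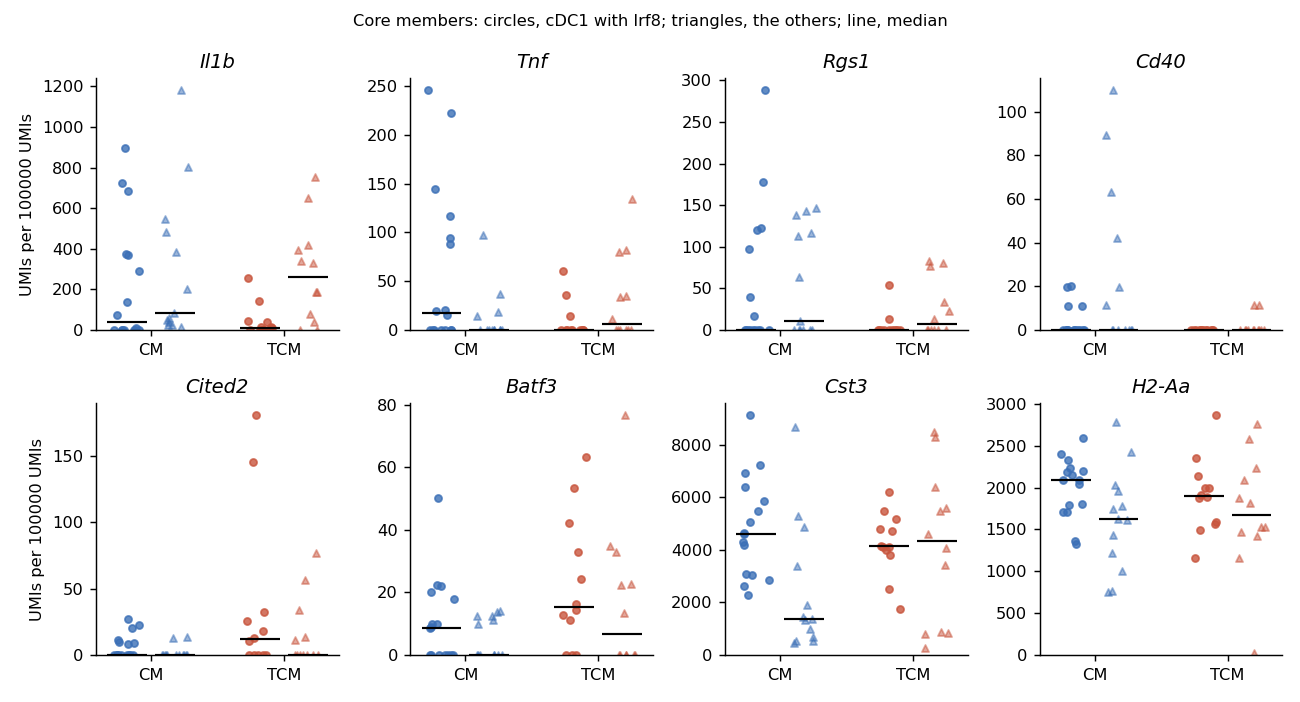
Level of 8 genes in each core member, in UMIs per 100000 UMIs, in the CM and TCM libraries, with circles for Irf8-bearing cDC1 (16 CM, 12 TCM), triangles for the remaining core members (13 CM, 12 TCM) and lines at the medians. Il1b in circles reaches 895 in CM and 256 in TCM, Cited2 is highest in 2 TCM circles, and H2-Aa and Cst3 overlap between the libraries.

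Chemokine genes gave 0 calls among 6 tested in the core, with a median of -0.21. Ccl17, which draws T cells, had 219 UMIs in 9 CM members and 93 in 7 TCM members (-0.82, -1.19 to -0.47), with 32.9% and 62.4% of them in a single member. In the Irf8-bearing cDC1 it had 87 UMIs in 4 CM members and 1 UMI in TCM. Ccl22, which shares its receptor with Ccl17, stood at -0.29 (-0.84 to 0.24), Ccl6 at 0.35 (-0.16 to 0.86) and Cxcl16 at -0.12 (-0.67 to 0.41). Over all members Ccl9 was called higher with 14 and 17 UMIs, and Ccl4 was called lower with 147 and 28, of which 94 CM UMIs lay in the Siglech-marked droplets. The genes of mature migrating cells, to which Ccl17 and Ccl22 also belong, gave 0 calls among 4 tested, with a median of 0.16. Samsn1 stood at 0.61 (-0.52 to 1.75) and Tmem123 at 0.64 (-0.58 to 1.88).

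Receptors for growth and migration gave 1 call among 10 tested in the core, with a median of 0.15. Ccr2, the receptor that brings monocytes and cDC precursors into tissue, was called higher with 29 and 46 UMIs (1.08, 0.38 to 1.80), with 39.1% of the TCM UMIs in the member of high Lyz2, and stood at 0.47 (-0.33 to 1.27) without it. Csf2ra, a chain of the GM-CSF receptor, stood at 0.15 (-0.47 to 0.75), Ifngr1, of the interferon gamma receptor, at 0.78 (0.14 to 1.43) and Il10ra at 0.56 (-0.22 to 1.35). Over all members Ifngr1 was called higher at 1.01 (0.41 to 1.62). Of the innate sensing genes 4 of 22 could be tested in the core, and Myd88, an adaptor of Toll-like receptors, was called lower with 17 and 4 UMIs (-1.67, -3.70 to -0.06). Cd14, a co-receptor for bacterial lipids, had 40 and 59 UMIs (0.97, 0.37 to 1.59), with 70.0% of the CM UMIs in 1 member, and was at 1.26 and 25.3 per 100000 in T-cell droplets and at 6.89 and 37.3 in free RNA.

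Among the remaining lower calls with the strongest bounds in the core was Rgs1, which damps signals of chemokine receptors. Rgs1 lies on chromosome 1 at 144242296 to 144249242. It ranged from 0 to 288 UMIs per 100000 in CM core members and from 0 to 82.5 in TCM core members, with a median of 0 in both. It had 110 UMIs in 14 of 29 CM members and 18 in 8 of 24 TCM members (-2.20, -3.00 to -1.47). The shares with an Rgs1 UMI were 48.3% and 33.3%, and 31.0% (15.3 to 50.8) and 12.5% (2.66 to 32.4) after thinning, against 17.4% and 14.8% of T-cell droplets, or 9.73% and 8.14% after thinning. In T-cell droplets its log2 ratio was -0.18.

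Odc1, the first enzyme of polyamine synthesis, lies on chromosome 12 at 17544794 to 17551505 and had 67 and 14 UMIs in the core (-1.84, -2.79 to -0.9995). Its level ranged from 0 to 324 UMIs per 100000 in CM and from 0 to 119 in TCM, so low members overlapped. Rgs1 and Odc1 were called under all 20 alternative settings tried. Ltb, which codes for lymphotoxin beta, had 28 and 4 UMIs (-2.39, -4.37 to -0.88). Sept7, a cytoskeletal septin, had 47 and 10 (-1.82, -2.97 to -0.82), Cnih4 had 36 and 8 (-1.76, -3.07 to -0.63) and Pdlim1 had 23 and 4 (-2.11, -4.10 to -0.56). Bex3 had 21 and 0 UMIs, a ratio of at most 0.190 with the 0 set to 3 counts over the group, with 42.9% of the CM UMIs in 1 member. The adhesion gene Flrt3 had 33 and 6 (-2.05, -3.59 to -0.77), with 39.4% in 1 CM member. Fdps, an enzyme of sterol synthesis, had 21 and 3 UMIs (-2.39, -4.78 to -0.65).

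Of the higher calls in the core, Cited2, a transcriptional co-regulator, lies on chromosome 10 at 17723218 to 17725674 and had 13 UMIs in 9 CM members and 51 in 12 TCM members (2.39, 1.49 to 3.39). Of the Cited2 UMIs in TCM 43.1% lay in 1 member, and in the Irf8-bearing cDC1 the ratio went from 2.51 to 1.91 without the highest member of each library. Hfe, which regulates iron uptake, lies on chromosome 13 at 23702034 to 23710854 and had 13 and 29 UMIs (1.57, 0.58 to 2.64), with at most 13.8% of the TCM UMIs in 1 member. Zc3h12a, a ribonuclease that degrades cytokine transcripts, had 10 and 24 UMIs (1.68, 0.56 to 2.91). Bccip had 6 and 18 (1.999, 0.60 to 3.62), the G protein gene Gna15 had 7 and 19 (1.85, 0.54 to 3.35) and Chchd2 had 30 and 51 (1.18, 0.50 to 1.88). Chchd2 was called in 6 of 20 alternative settings, among them all settings of core members. Among the strongest higher calls over all members were also Arhgap31 with 11 and 21 UMIs and Zfp263 with 6 and 15, of which Zfp263 could not be tested in the core.

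Other higher calls had a large share of their UMIs in 1 member or were genes of free RNA. Msrb1, an enzyme that repairs oxidised methionine, had 11 and 34 UMIs (2.04, 1.03 to 3.17), with 64.7% of the TCM UMIs in the member of high Lyz2 and a ratio of 0.65 (-0.66 to 1.97) without it. Prdx5, a peroxidase, had 26 and 62 (1.67, 0.99 to 2.39), with 40.3% in 1 member. Without the member of high Lyz2 Prdx5 was still called higher, with 26 and 37 UMIs (1.03, 0.27 to 1.81). S100a9, a neutrophil calcium-binding protein, had 0 UMIs in CM and 21 in TCM, at least 9.33-fold higher with the 0 set to 3 counts over the group. It was also higher in T-cell droplets (257 and 614 per 100000) and in free RNA (96.0 and 437), and droplets of the neutrophil rule were more frequent in TCM. Over all members S100a9 was no longer called when free RNA was subtracted. Sftpc had 63 and 107 UMIs in the core (1.18, 0.72 to 1.65) and 701 and 226 over all members. Scgb1a1 had 202 and 232 in the core (0.61, 0.34 to 0.89) and 2046 and 255 over all members, where it was called lower.

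**Figure D5:**
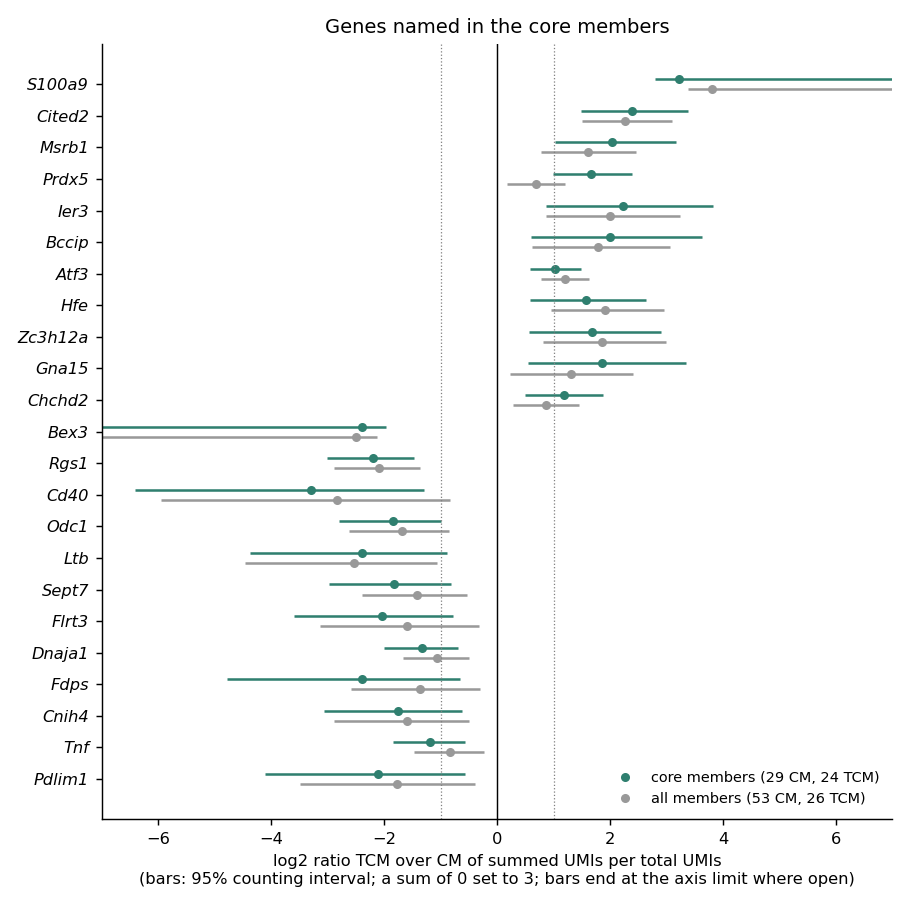
Log2 ratio of TCM over CM (x axis) with 95% counting intervals for 23 genes named by the rule in core members, Sftpc left out, shown for the core and for all members, with bounds for genes at 0 UMIs in a library. Rgs1, Odc1 and Cd40 lie below 0 in both, and Cited2 and Hfe lie above 0 in both.

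Immediate early genes, which respond within minutes to signals and to tissue handling, had a median of -0.05 over 17 tested in the core. Atf3 and Ier3 were called higher, with 71 and 109 UMIs (1.03, 0.59 to 1.48) and 6 and 21 UMIs (2.22, 0.86 to 3.82). Of the TCM UMIs of Atf3 50.5% lay in the member of high Lyz2, without which Atf3 stood at 0.13 (-0.41 to 0.66). Fos stood at -0.60 in the core and was not called. Without that member Fos was called lower, with 246 and 76 UMIs (-1.17, -1.56 to -0.80). Nfkbia, the inhibitor of NF-kB, stood at -0.02 (-0.20 to 0.16), Zfp36 at -0.08 (-0.30 to 0.14), Junb at -0.24 (-0.46 to -0.02) and Jund at -0.05 (-0.30 to 0.19). In the Irf8-bearing cDC1 Nfkbia stood at -0.96 (-1.25 to -0.67) and Fos at -0.89 (-1.36 to -0.44), and in the remaining core members Nfkbia stood at 0.71 (0.45 to 0.97). These genes moved to the same side as Il1b and Tnf in the Irf8-bearing cDC1, and the part of handling in this was not tested.

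Heat shock genes gave 2 calls among 10 tested in the core, with a median of -0.14. The co-chaperone Dnaja1 was called lower with 90 and 27 UMIs (-1.32, -2.00 to -0.69). Dnajb1 was called higher with 23 and 39 (1.18, 0.40 to 1.99), with 56.4% of the TCM UMIs in 1 member. Hspa8 stood at 0.07 (-0.12 to 0.27), Hsp90ab1 at -0.04 (-0.25 to 0.16) and Hspa1a at -0.24 (-0.65 to 0.17), and Hsp90aa1 at -0.70 (-1.21 to -0.20). Over all members Dnaja1 and Hspe1 were called lower, the latter with 56 and 14 UMIs.

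Glucocorticoid-induced genes gave 0 calls among 6 tested in the core, with a median of 0.33. Tsc22d3 stood at 0.24 (-0.32 to 0.79), Ddit4 at -0.12 (-1.02 to 0.75), Txnip at 0.49 (-0.49 to 1.47) and Il1r2 at -0.65 (-1.77 to 0.40). Lipid handling, the subject of the study, is given here by 3 of its genes. The lipid droplet coat Plin2 stood at 0.31 (-0.50 to 1.12) and the fatty acid receptor Cd36 at 0.20 (-0.76 to 1.16) in the core. Over all members the lipoprotein gene Apoe was called lower with 18 and 2 UMIs, of which 16 CM UMIs lay in the Siglech-marked droplets.

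The S100, annexin and galectin genes with the filament gene Vim gave 0 calls among 10 tested in the core. Their median was -0.31, and 5 of the 10 intervals lay below 0. The share of all tested genes with such an interval is not given here, so that count has no background. The list's level by droplet, scaled as above, ranged from 310 to 3736 in the CM core, with a median of 1073. In the TCM core it ranged from 522 to 1867, with a median of 851, so the libraries overlapped. Summed, it was 1828 in the 6 CM core cDC1 that were not Irf8-bearing, which held the highest droplet. In the Irf8-bearing cDC1 it was 1061 in CM and 838 in TCM. Vim stood at -0.52 (-0.67 to -0.37), S100a11 at -0.35 (-0.59 to -0.11), Anxa2 at -0.29 (-0.56 to -0.01) and S100a10 at -0.51 (-0.83 to -0.20). Over all members the median of this list was -0.10 and 1 interval lay below 0.

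The marker genes of the rule are given as a description. In the core Cd209a had 159 and 65 UMIs, Clec9a 51 and 34, Xcr1 24 and 22, and Flt3 27 and 8, the latter past the limit of a call. Among all members 26 CM and 7 TCM droplets had a Flt3 UMI, and 15 and 4 had a Zbtb46 UMI.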

How the data were processed

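RNA of single cells was measured in 1 library per group. The authors prepared 5-prime 10x libraries and mapped reads to mm10 (GRCm38.p6) with Cell Ranger, version 4 by the file headers, and the submitters' notes also name Seurat. The deposited values are raw counts of UMIs per gene and barcode, with no normalization, for 737280 barcodes and 32286 features. Coordinates are from GENCODE vM21, and 32158 features matched it.

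Groups followed the treatment labels. UMIs of the members were summed per library and divided by their total. Shares have Clopper-Pearson intervals and ratios conditional binomial intervals, at 95%, for counting error only. A sum of 0 was set to 3 counts, and pairs of sums of 3 or fewer got no ratio. Free RNA came from droplets of at most 50 UMIs. No doublet caller was run; deep members and members with UMIs of other lineages were left out as alternatives. T-cell droplets had at least 2 UMIs of Cd3d, Cd3e and Cd3g and at most 2 of H2-Ab1.

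Named genes were the rule's genes, the called and the 4 most abundant genes of each list described, and the 12 calls in each direction with the interval bound farthest from equality, leaving out mitochondrial, ribosomal and unnamed genes. The members and lists were chosen with earlier results of these data known, and the core members, their kinds and the use of the gene rule on them after the values were seen. The calls were tried on counts simulated from the summed profile of the members, with no spread between members. That trial cannot show how often such spread gives a call in these data. Python 3.11.15, numpy 2.4.6, scipy 1.17.1 and pandas 2.3.3 were used. Results for some genes, named and list genes among them, are not reported here.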

Additional observations from a re-analysis of the deposited data

Results flagged for a closer look

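Of 181 genes compared, 9 had log2 ratios of TCM over CM on opposite sides in core cDC1 (22 CM, 16 TCM) and in the other core members (7 CM, 8 TCM), with both counting intervals clear of 0. The difference was not tested, since each group had 1 library. Tnf stood at -2.24 in core cDC1 and 3.65 in the others, Fos at -1.31 and 1.83, Id2 at -0.59 and 1.76, Lyz2 at -0.44 and 2.43, Nfkbia at -0.55 and 0.55 and Lgals3 at -0.65 and 0.89. On the other side, Txnip stood at 1.51 and -2.10, Scgb1a1 at 1.27 and -0.95 and H2-Ab1, which the rule used, at 0.13 and -0.27. Of the 307 Lyz2 UMIs of the TCM others, 263 lay in 1 droplet. Without that droplet the others stood at -0.05 for Lyz2, 0.44 (-0.64 to 1.56) for Fos, -0.19 for Lgals3, -1.77 (-4.29 to 0.23) for Txnip and 0.05 (-0.14 to 0.24) for H2-Ab1, while Nfkbia at 0.87, Id2 at 2.09 and Scgb1a1 at -1.19 stayed on their side. The Tnf value of the others rests on 1 CM UMI and 18 TCM UMIs.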

How the results depend on the processing

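The share of members in TCM over CM was 0.508 and stayed below 1 under all 17 alternatives, moving to 0.858 for core members and 0.888 with the matching pair counted once. The genes called higher, 56 over all members, became 136 when members were averaged, 17 when thinned to 1000 UMIs, 34 without the highest member of each gene, 23 in the core without it, 26 in the core without the TCM member of highest Lyz2 and 15 with at least 50 UMIs. The genes called lower, 175, became 57 without Siglech-marked members, 54 in the core, 51 in the core with the pair counted once, 27 when thinned, 51 in the core without the highest member of each gene, 66 in the core without the TCM member of highest Lyz2 and 57 with at least 50 UMIs. Of the core calls, 17 higher and 33 lower were kept without the highest member of each gene. Settings that leave out Siglech-marked, secretory-gene-laden or matching members, or the highest member of a gene, and all core settings were added after seeing the data.

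Named genes changed side in 8 cases. Scgb1a1 went from -2.14 to 0.36 without secretory-gene-laden members and to 0.61, 0.64, 0.62 and 0.59 in the core, in the core with the pair counted once, without the highest member and without the member of highest Lyz2. Atp1b1 went to 0.10 without Siglech-marked members, and Bex3 to 0.26 and Cnih4 to 0.58 when thinned. The causes were not tested. Tnf and Chchd2 were called in 6 and Prdx5 in 5 of 20 settings, and all core settings were among these. The settings in which they were not called were all variants of the wider membership. Cd40, Cited2, Hfe, Batf3, Zc3h12a, Bccip, Sept7, Cnih4 and Pdlim1 lost the call only when thinned. No paired analysis was possible because each group had 1 library, and leaving out a replicate was not possible for the same reason. With 53 and 26 members, genes of few UMIs could not be tested.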
